A study of Mus musculus with 8 samples.

Results

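The transcripts of 7 mouse liver genes were followed: the receptor tyrosine kinase genes Egfr, Erbb2, Erbb3, Met, Insr and Fgfr4, and Klb, which encodes the coreceptor β-Klotho. They were chosen by symbol as receptors through which growth factors and insulin reach hepatocytes, and all 7 were found among the 24197 genes of the authors' deposited table. The liver RNA came from mice aged 8 to 12 weeks in 4 groups, which were floxed control males, STAT5ab-KO males, floxed control females and STAT5ab-KO females. Every group, controls included, carried a floxed Stat5a-Stat5b locus on a mixed C57BL/6 x 129J background, and the knockout groups also carried Cre under the albumin promoter from an FVB/N line. Albumin-driven Cre acts in hepatocytes, so other cells of a knockout liver may keep both Stat5 genes. Deletion by cell type was not measured. Each group had 2 libraries of rRNA-depleted, strand-specific RNA-seq, each made from a pool of snap-frozen livers whose number of animals is not given, and the p-values therefore rest on the spread between pools at most.

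Growth hormone acts on hepatocytes through JAK2 and the transcription factors STAT5a and STAT5b. Receptor tyrosine kinases sit in the cell membrane, bind a ligand outside the cell and start phosphorylation cascades inside it, among them the RAS to ERK and the PI3K to AKT cascades. In liver, EGFR binds EGF and TGFα and MET binds hepatocyte growth factor, and both are known for their role in regeneration after tissue loss. Insulin acts through INSR on glucose and lipid metabolism, and FGFR4 together with β-Klotho binds the gut hormone FGF15, the mouse counterpart of human FGF19, which represses bile acid synthesis.

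Egfr was the member with a difference that passed the authors' test, and it was lower in knockout livers of both sexes. The male groups showed a 3.30-fold and the female groups a 2.68-fold difference in the authors' deposited table. Met and Klb had smaller differences that did not pass. Met was higher in knockout livers of both sexes, and Klb had lower group means in both, with overlap of the libraries in females. Erbb2, Erbb3, Insr and Fgfr4 had ratios between 0.813 and 1.11 in the authors' deposited table, with none past the threshold. The share of members called, 1 of 7 in each genotype comparison, stands beside 2.18% of all listed genes called in males and 1.55% in females.

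Depth, as the library total that scales the FPKM, was between 6192515 reads in the shallower control male library and 34651386 reads in the deeper control female library. The shallower control female library had 15041481 reads, and the knockout libraries had 23547001 to 31686769 reads. In each sex the shallower control library held the higher Egfr value of its group. The part of depth in the Egfr values was not tested. FPKM is a read number scaled by gene length and library total, and a gene is said to be called where the authors' adjusted p is under 0.05. The values of single libraries given here were recovered from the deposited group means, and the libraries of a group are named the deeper and the shallower by their totals. The targeted genes were lower in knockout libraries without overlap. The authors' deposited table gave Stat5a 4.49-fold lower in males (adjusted p = 1.43e-05) and 2.99-fold lower in females (adjusted p = 0.0242), while limma voom gave adjusted p-values of 0.145 and 0.238. The deposited table of the authors had Stat5b 2.97-fold lower in males (adjusted p = 3.14e-06) and 2.58-fold lower in females (adjusted p = 3.51e-06), beside 0.0485 and 0.0842 by limma voom. For the check of the tissue, the 12 hepatocyte markers, led by Alb, summed to between 17036 and 23268 FPKM in every library, and 0 of the 12 were called in any of the 4 comparisons, by the authors' test or by limma voom, with at most 1 at an unadjusted p under 0.05. In the pooled tissue, fewer cells of a type and less RNA per cell cannot be told apart.

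Markers of other liver cells did not all stay level in the male genotype comparison. The 9 listed Kupffer and macrophage markers summed to 38.6 to 40.0 FPKM in control males and to 58.7 to 60.4 FPKM in knockout males. Their median log2 ratio in the authors' deposited table was 0.54. C1qa was called, 7 of the 9 had an unadjusted p under 0.05, and limma voom called 0. In females the sums were 49.7 to 53.5 and 54.0 to 70.3 FPKM, with 0 at an unadjusted p under 0.05. Control males against control females also had 7 of the 9 under 0.05, with a median log2 ratio of −0.53. The 8 bile duct markers summed to 4.35 to 9.38 FPKM in control males and to 30.2 to 39.4 FPKM in knockout males. Of these, Spp1, the osteopontin gene, was called and was the 1 with an unadjusted p under 0.05. The median log2 ratio of the 8 in males was −0.21 in the authors' deposited table, so the list did not share the rise of the sum. Krt7 and Krt19, keratins that define bile duct cells, reached at most 0.315 FPKM. Of the 10 endothelial and 10 stellate markers, 0 were called in either genotype comparison by the authors' test or by limma voom, with at most 1 of a list at an unadjusted p under 0.05. The part of these shifts in the receptor values was not tested.

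In all 4 groups Egfr had the highest level of the 7 genes and Erbb2 the lowest, on the FPKM scale, which corrects for gene length. The mean level of Egfr in control males, 84.7 FPKM, ranked 255 among the listed genes. Erbb3, Met and Insr followed, with group means between 8.42 and 14 FPKM. Fgfr4 and Klb came next with group means between 3.51 and 6.63 FPKM. Within the middle of this order several neighbours overlapped, such as Insr and Met in control males, Erbb3 and Insr in control females, and Met, Erbb3 and Insr in knockout males. Fgfr4 stood above Klb in 3 groups and below it in control females, and libraries of these neighbours overlapped in control males and in knockout females. Erbb2 rested on 6 to 28 reads a library, whereas the other members had between 120 and 13294 reads.

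**Figure D1:**
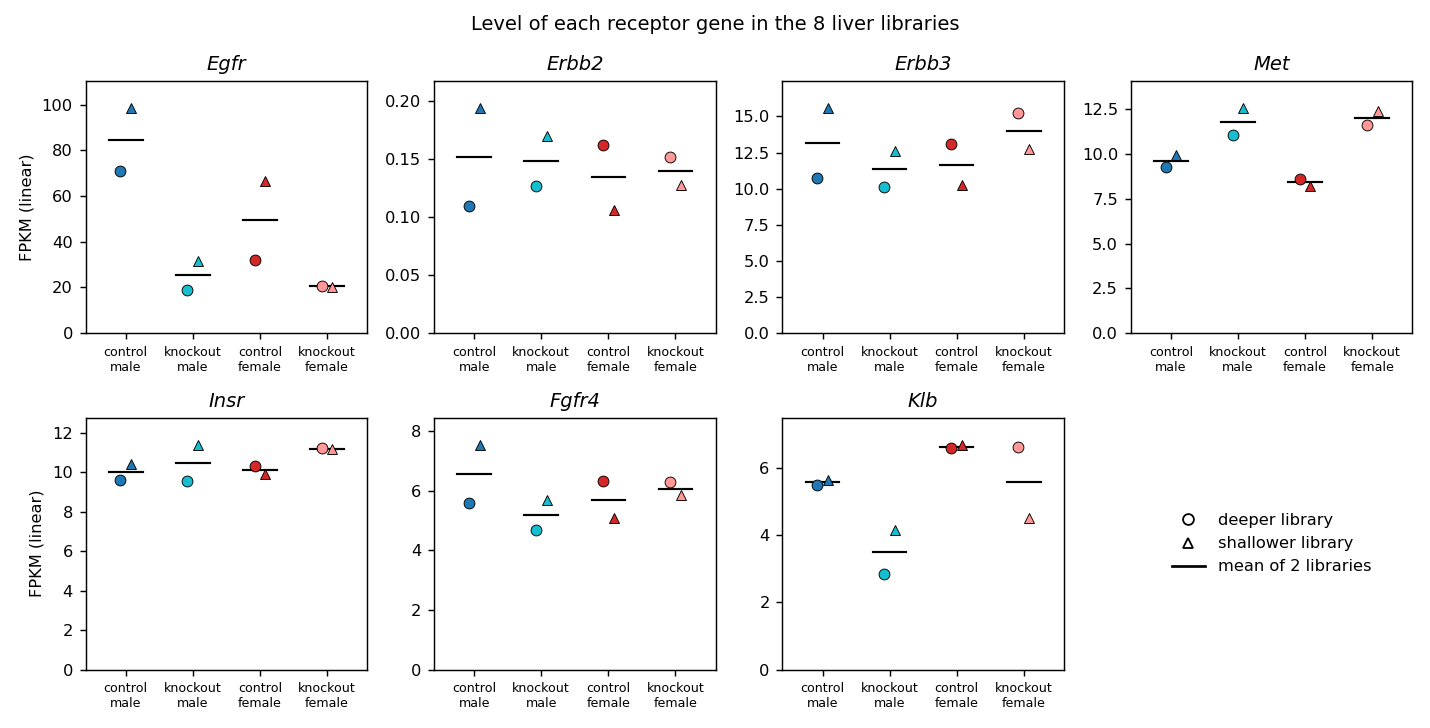
Level of each receptor gene in FPKM (linear axes that start at 0) in the 8 libraries, with a circle for the deeper library, a triangle for the shallower library and a line for the mean of the 2 libraries of a group. Egfr lies between 19.1 and 31.4 FPKM in the 4 knockout libraries and between 32.0 and 98.6 FPKM in the 4 control libraries.

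Egfr lies on chromosome 11 at 16652205 to 16813910 in the mm9 build, with 6438 bases of gene length behind its FPKM. The deposited rows join transcripts of different extent at this locus, and the value per gene does not tell isoforms apart. Upstream sequence is shown for Egfr, the called member, and for Klb, the member with the next largest differences. Both are the 250 bases before the annotated start from RefSeq in GRCm38.p6, at chr11:16751953-16752202 (plus strand) for Egfr and chr5:65348161-65348410 (plus strand) for Klb. Capitals mark a match to the GC box GGGCGG on either strand.
Egfr: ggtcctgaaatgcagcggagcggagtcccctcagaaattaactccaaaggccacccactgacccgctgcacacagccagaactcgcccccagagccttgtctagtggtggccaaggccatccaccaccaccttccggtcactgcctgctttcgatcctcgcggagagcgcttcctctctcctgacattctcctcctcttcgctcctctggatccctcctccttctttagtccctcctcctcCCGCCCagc
Klb: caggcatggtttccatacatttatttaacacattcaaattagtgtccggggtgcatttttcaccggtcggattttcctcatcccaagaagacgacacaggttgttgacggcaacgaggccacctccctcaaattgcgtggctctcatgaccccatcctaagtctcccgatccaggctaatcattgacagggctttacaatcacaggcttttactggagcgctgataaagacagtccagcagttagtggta
The Egfr window has a GC content of 60.8% and 1 GC box, close to the start, and the Klb window has a GC content of 48% and no GC box. Over all 32851 RefSeq windows of that length the median GC content was 52.4%, and 32.7% held a GC box. TTCNNNGAA, the palindromic motif that STAT5 is known to bind, was in neither window, nor in those of Erbb2, Met and Fgfr4, and 7.02% of all windows held it. The Met window had a GC content of 74% with 3 GC boxes, that of Fgfr4 64% with 2, and that of Erbb2 66% with none. The RefSeq table used held 5 of the 7 members, and Erbb3 and Insr were not among them.

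Egfr encodes the receptor of EGF, TGFα and related ligands. In control males its level was 70.8 FPKM in the deeper and 98.6 FPKM in the shallower library (84.7 ± 19.6, SD, n = 2). Knockout males had 19.1 and 31.4 FPKM (25.3 ± 8.74, SD, n = 2). Each knockout male library was below each control male library, as for 14.6% of the 18004 genes with reads, by more than the gap between libraries of a group. In males the authors' deposited table gave Egfr a ratio of 0.303, which is 3.30-fold lower in knockouts, with an adjusted p of 8.84e-09 by edgeR. A limma voom fit to the recovered reads gave a ratio of 0.292 with a 95% interval of 0.174 to 0.492 and an adjusted p of 0.0391, beside 1.52% of its genes called. By limma on log2(FPKM + 1) the adjusted p was 0.206 with 0.305% of genes called, so that the call in males depended on the test. Leaving out 1 library in turn, the voom fit gave log2 ratios between −2.08 and −1.47. The direction could hardly change, as the groups did not overlap. The call was lost without the deeper control male library (adjusted p = 0.126 by limma voom), without the shallower control male library (adjusted p = 0.208) and without the deeper knockout male library (adjusted p = 0.201).

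In control females Egfr was at 32.0 FPKM in the deeper and 66.8 FPKM in the shallower library (49.4 ± 24.6, SD, n = 2). The female knockout libraries lay close together at 20.7 and 20.2 FPKM (20.4 ± 0.343, SD, n = 2). Both were below both control libraries, as were 9.25% of the 18004 genes with reads, and the controls differed from each other by more than the distance from the lower of them to the knockouts. For females the authors' deposited table gave a ratio of 0.373, which is 2.68-fold lower, with an adjusted p of 0.000271 by edgeR. Limma voom gave 0.392 with a 95% interval of 0.234 to 0.657 and an adjusted p of 0.178, and limma on log2(FPKM + 1) an adjusted p of 0.505, so neither refit, with 0.354% and 0.0333% of its genes called, called Egfr in females. Without the shallower control female library the voom log2 ratio was −0.75 (adjusted p = 0.626), and without the deeper one it was −1.89 (adjusted p = 0.105).

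Among the 192 genes that were called lower in knockout males in the authors' deposited table, 0.793% of all listed genes, Egfr came 29 in order of control level, 72 in order of fold and 19 in order of p. In females the authors' deposited table called 123 genes lower, 0.508% of listed genes. Among these Egfr came 23 in order of control level, 38 in order of fold and 43 in order of p. Egfr was 1 of 58 genes, 0.24% of the listed genes, that the authors' deposited table called lower in both sexes. The mean level ranked 255 among all listed genes in control males and 872 in knockout males, and 430 in control females and 1088 in knockout females. Egfr remained the most abundant of the 7 members in the knockout groups. The sum of FPKM over the 7 genes was 112 and 148 in control male libraries against 57.5 and 78.1 in knockout male libraries, and Egfr made up 63.5% and 66.6% of it in control males and 33.2% and 40.3% in knockout males.

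**Figure D2:**
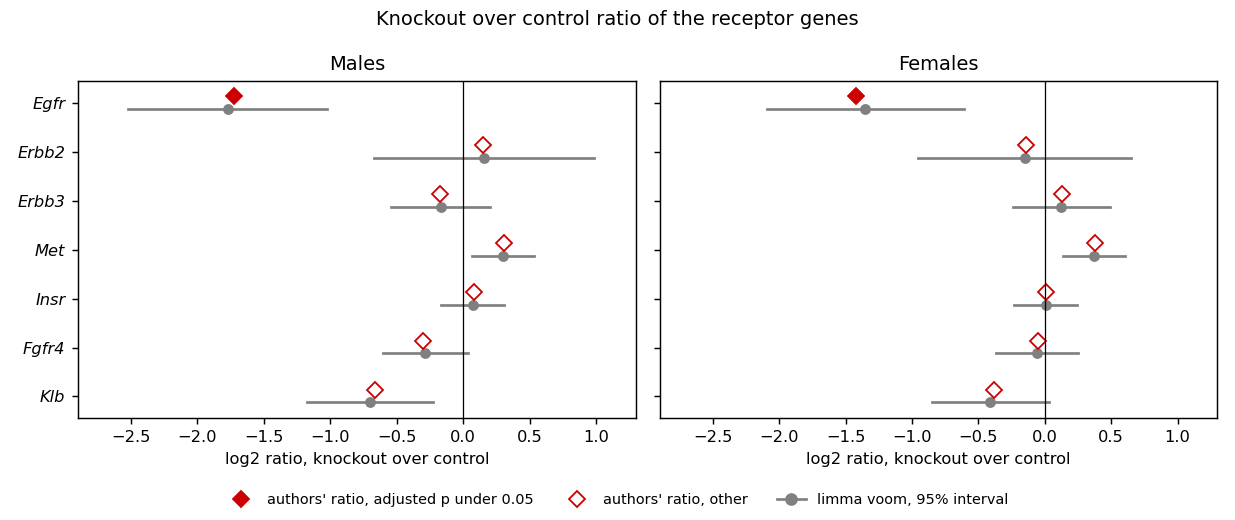
Ratio of knockout to control level for the 7 genes on a log2 axis, with diamonds for the authors' ratio (filled where the adjusted p is under 0.05) and grey circles with bars for the limma voom estimate and its 95% interval. Egfr has a filled diamond in both sexes, at −1.72 in males and −1.42 in females.

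Erbb2 and Erbb3 encode partners with which EGFR forms heterodimers, ERBB2 having no known ligand of its own and ERBB3 having a kinase domain of little activity. Erbb3 was at 10.7 and 15.6 FPKM in the deeper and shallower libraries of control males, 10.1 and 12.6 FPKM in knockout males, 13.1 and 10.3 FPKM in female controls and 15.2 and 12.8 FPKM in female knockouts. Its groups overlapped in both genotype comparisons. The voom ratio of knockout to control was 0.889 in males (95% interval 0.686 to 1.15) and 1.09 in females (0.845 to 1.41), which leaves room for a difference of either sign. Erbb2 ran from 0.106 to 0.194 FPKM over the 8 libraries, with overlap in both genotype comparisons. At 6 to 28 reads a library its voom intervals were wide, 0.627 to 1.98 in males and 0.517 to 1.57 in females. Erbb4, the last gene of the family, was at 20 and 17 reads in control males and at 11 and 1 reads in knockout males. For males the authors' deposited table called it lower by 7.39-fold (adjusted p = 0.0188), and limma voom gave an adjusted p of 0.256. In females Erbb4 had 32 and 4 reads in controls and 26 and 29 reads in knockouts.

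Within a library, Egfr made up 86.6% and 85.7% of the summed FPKM of the 4 ERBB genes in control males and 64.9% and 71.0% in knockout males. In females the shares were 70.4% and 86.5% in controls and 57.0% and 60.5% in knockouts. The share was lower in each knockout library than in each control library of the same sex, and this ratio does not depend on the library total. The ratio of Egfr to Erbb3 was 6.61 and 6.33 in control males, 1.88 and 2.49 in knockout males, 2.45 and 6.52 in female controls and 1.36 and 1.58 in female knockouts. The deeper control female library thus had a ratio within the range of the knockout males, below that of its partner library.

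**Figure D3:**
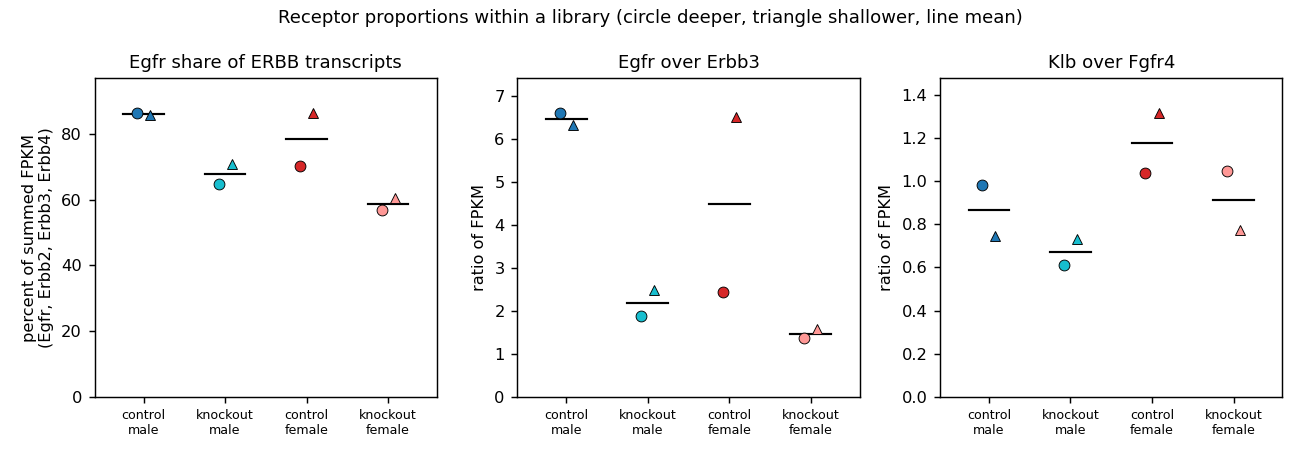
Proportions within each library on axes that start at 0: the Egfr share of the summed FPKM of the 4 ERBB genes in percent, the ratio of Egfr to Erbb3, and the ratio of Klb to Fgfr4 (circle, deeper library; triangle, shallower library; line, mean). Egfr shares are 57.0% to 71.0% in knockout libraries and 70.4% to 86.6% in control libraries.

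Of the 11 genes of EGF family ligands, 0 were called in either genotype comparison by the authors' test, 2 in males and 1 in females had an unadjusted p under 0.05, and limma voom called 0 of the 6 it tested. Their median log2 ratio in the authors' deposited table was 0.11 in males and 0.0059 in females, beside medians of 0.016 and 0 over the 18004 genes with reads. Tgfa, whose product is made by hepatocytes, was at 1.75 and 3.40 FPKM in control males, 1.97 and 2.09 FPKM in knockout males, 1.88 and 1.46 FPKM in female controls and 1.93 and 1.82 FPKM in female knockouts, with overlap in both sexes. Egf reached at most 0.116 FPKM, and in females it had 5 and 3 reads in controls against 11 and 13 reads in knockouts. The female ratio of Egf was 2.49 in the authors' deposited table, and the adjusted p was 0.858. Areg had 0 reads in all 8 libraries.

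Met encodes the receptor of hepatocyte growth factor. Its level was 9.28 and 9.98 FPKM in control males and 11.1 and 12.6 FPKM in knockout males. In females it was 8.60 and 8.24 FPKM in controls and 11.6 and 12.4 FPKM in knockouts. Every knockout library was above every control library, in both sexes. Of the 18004 genes with reads, 20.1% had male knockout libraries all above the controls, and 32.1% had female ones so. The authors' deposited table gave ratios of 1.24 in males (p = 0.145, adjusted p = 1 by edgeR) and 1.3 in females (p = 0.0347, adjusted p = 0.721). Limma voom gave 1.23 in males (95% interval 1.05 to 1.45, adjusted p = 0.234) and 1.29 in females (1.10 to 1.52, adjusted p = 0.241). The difference was thus small beside that of Egfr and passed no adjusted test. The direction was the same in all 16 alternatives tried for each sex, but these reuse the same 8 libraries. As the groups did not overlap, leaving out a library could hardly change the direction, so this adds no support.

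Of the 9 genes of HGF and its activators and inhibitors, 1 was called in males, beside 2.18% of all listed genes, and 0 in females, beside 1.55%. In females 1 had an unadjusted p under 0.05 and limma voom called 0. The median log2 ratios of the list in the authors' deposited table were 0.090 and −0.12. The gene called was Hgfac, which encodes a serine protease that activates the HGF precursor. Hgfac was at 24.5 and 23.3 FPKM in control males and 43.0 and 42.5 FPKM in knockout males, 1.80-fold higher in the authors' deposited table (adjusted p = 0.0085), while limma voom gave an adjusted p of 0.139. In females it was at 29.2 and 16.1 FPKM in controls and 38.3 and 36.7 FPKM in knockouts, for which the authors' deposited table has an adjusted p of 0.417. Hgf itself, made by stellate and other non-parenchymal cells, was at 2.40 and 3.51 FPKM in control males, 2.98 and 2.82 FPKM in knockout males, 3.99 and 4.09 FPKM in female controls and 4.08 and 4.06 FPKM in female knockouts. The 4 female libraries were above the 4 male libraries, and the genotypes overlapped in males and in females. The 10 stellate cell markers summed to between 33.7 and 47.2 FPKM in control males and between 52.7 and 56.0 FPKM in control females, where 7 of the 10 had an unadjusted p under 0.05 and Lrat and Col3a1 were called lower in males. In knockouts the sums were between 33.7 and 41.6 FPKM in males and between 47.8 and 50.4 FPKM in females, with Lrat called lower in males. The part of these markers in the Hgf values was not tested.

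Insr encodes the insulin receptor. It was at 9.61 and 10.4 FPKM in control males and 9.55 and 11.4 FPKM in knockout males, which overlapped. Control females had 10.3 and 9.89 FPKM and knockout females 11.2 in both libraries. These did not overlap, as 32.1% of the 18004 genes with reads were higher in female knockouts without overlap. Over the 8286 genes with at least 1 FPKM in every group, the median log2 ratio of female knockouts to controls was 0.14 in FPKM and 0.0051 in the authors' deposited normalized ratio, and the part of this in the Insr values was not tested. The voom ratio of Insr was 1.05 in males (95% interval 0.891 to 1.24) and 1.01 in females (0.853 to 1.18). A difference of more than 1.24-fold upward in either sex lies outside these intervals.

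Of 22 relatives and signal partners of the insulin receptor, 1 was called in males, beside 2.18% of all listed genes, and 0 in females, beside 1.55%. In females 3 had an unadjusted p under 0.05 and limma voom called 0. The gene called was Ptpn1. Ptpn1 encodes PTP1B, a phosphatase known to remove phosphate from the insulin receptor. It was at 1.91 and 1.80 FPKM in control males and 3.63 and 3.37 FPKM in knockout males. The authors' deposited table had it 1.87-fold higher (adjusted p = 0.00661), and limma voom called it too (ratio 1.82, 95% interval 1.41 to 2.34, adjusted p = 0.0385). Female Ptpn1 was at 1.92 and 2.04 FPKM in controls and 2.90 and 3.39 FPKM in knockouts, also without overlap, for which the authors' deposited table has 0.253 as adjusted p. The effect in males exceeded that in females by 0.18 on the log2(FPKM + 1) scale, with a 95% interval of −0.17 to 0.53 that holds 0.

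Over the 10 insulin target genes of hepatocytes, the median log2 ratio in the authors' deposited table was 0.048 in males and 0.077 in females. Igfbp1 was called higher in both sexes and was the 1 called in males, beside 2.18% of all listed genes. It encodes an IGF binding protein whose gene insulin represses. Its level was 1.35 and 2.87 FPKM in control males against 26.2 and 15 FPKM in knockout males, and 8.45 and 5.51 FPKM in control females against 42.3 and 60.0 FPKM in knockout females. The authors' deposited table had it 11-fold higher in males (adjusted p = 4.45e-17) and 6.61-fold higher in females (adjusted p = 2.71e-24). The part of insulin in this difference was not tested.

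Fgfr4 encodes the main FGF receptor of hepatocytes, and Klb the coreceptor that FGF15 and FGF21 need. Fgfr4 was at 5.59 and 7.55 FPKM in control males, 4.68 and 5.71 FPKM in knockout males, 6.34 and 5.07 FPKM in female controls and 6.30 and 5.85 FPKM in female knockouts. The groups overlapped in both genotype comparisons. Limma voom gave ratios of 0.821 in males (95% interval 0.658 to 1.02) and 0.961 in females (0.777 to 1.19). Fgfr4 made up 41.1% to 49.5% of the summed FPKM of Fgfr1 to Fgfr4 over the 8 libraries.

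Klb was at 5.51 and 5.63 FPKM in control males and at 2.85 and 4.17 FPKM in knockout males. Knockout male libraries were both below the controls, as for 14.6% of the 18004 genes with reads. For males the ratio in the authors' deposited table was 0.63, that is 1.59-fold lower, with p = 0.00626 and an adjusted p of 0.2 by edgeR. The voom ratio was 0.614 (95% interval 0.442 to 0.854, adjusted p = 0.172). In females Klb was at 6.58 and 6.69 FPKM in controls and 6.62 and 4.52 FPKM in knockouts, where the deeper knockout library lay between the controls. The authors' deposited table gave a female ratio of 0.765 (p = 0.0698, adjusted p = 1). The ratio of Klb to Fgfr4 was 0.984 and 0.747 in control males, 0.609 and 0.730 in knockout males, 1.04 and 1.32 in female controls and 1.05 and 0.773 in female knockouts.

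Of 15 genes of the FGF15/19 and FGF21 axis, 0 were called in males, beside 2.18% of all listed genes. There 3 had an unadjusted p under 0.05, and limma voom called 0 of 13. In females 1 was called, beside 1.55% of all listed genes. That gene was Cyp7a1, which encodes the rate-limiting enzyme of bile acid synthesis. In females it was at 56.5 and 48.1 FPKM in controls and 20.9 and 37.7 FPKM in knockouts, which the authors' deposited table called lower by 1.96-fold (adjusted p = 0.011), and limma voom gave an adjusted p of 0.469. Male Cyp7a1 was at 43.6 and 19.9 FPKM in controls and 72.0 and 67.0 FPKM in knockouts, which the authors' deposited table gives as a ratio of 2.15 (adjusted p = 0.0636). The genotype effects on Cyp7a1 differed between the sexes by 2.07 on the log2 scale (95% interval 0.68 to 3.46 by limma on log2(FPKM + 1)), with an adjusted p of 0.843. Fgf15 had 0 reads in every library, and Fgf21, made in liver itself, was at 0.435 and 0.341 FPKM in control males, 0.167 and 0.143 FPKM in knockout males, 0.244 and 0.702 FPKM in female controls and 0.972 and 0.0897 FPKM in female knockouts. In males Fgf21 rested on 12 and 2 reads against 5 and 4 reads, and the adjusted p was 0.867 in the authors' deposited table. Fgfr2, a paralog of Fgfr4, was at 3.47 and 4.38 FPKM in control males and 1.88 and 2.84 FPKM in knockout males, and its adjusted p was 0.129 in the authors' deposited table.

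Males and females were compared within each genotype. In controls, 0 of the 7 members were called by the authors' test beside 1.47% of listed genes, 0 had an unadjusted p under 0.05, and limma voom called 0 beside 0.763%. In knockouts, 0 of 7 were called beside 1.01%, 1 had an unadjusted p under 0.05, and limma voom called 0 beside 0.385%. Egfr in control males lay above control females without overlap, as did 24.3% of the genes with reads, with a ratio of 1.53 (p = 0.0551, adjusted p = 0.857) in the authors' deposited table. The voom log2 ratio was 0.71, and it was 0.17 without the deeper control female library and 1.31 without the shallower one. Over the 8286 genes with at least 1 FPKM in every group, the median log2 ratio of control males to control females was 0.17 in FPKM and 0.027 in the authors' deposited normalized ratio. In knockouts the sexes overlapped for Egfr. The member with the unadjusted p under 0.05 was Klb, lower in knockout males than in knockout females without overlap, as were 18.4% of genes with reads, with a ratio of 0.637 in the authors' deposited table (p = 0.00794, adjusted p = 0.391). In controls Klb was at 5.51 and 5.63 FPKM in males and at 6.58 and 6.69 FPKM in females, with a voom interval of 0.564 to 1.08 that includes no difference. Met lay higher in control males than in control females without overlap, with a voom interval of 0.889 to 1.23. Erbb3 and Fgfr4 also lay lower in knockout males than in knockout females without overlap, with voom intervals of 0.638 to 1.06 and 0.701 to 1.06.

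The genotype effect in males was set against that in females by an interaction term in limma on log2(FPKM + 1), and it was called for 0 of the 7 members. For all 7 the unadjusted p was 0.174 or more, limma voom called 0, and over all 18004 genes 0.0111% were called. The Egfr effect was more negative in males by 0.59 on the log2 scale (95% interval −1.93 to 0.75, adjusted p = 0.854). The interval holds 0 as well as differences of more than 1 in size. For Met the difference was −0.20 (95% interval −0.52 to 0.12) and for Klb −0.32 (95% interval −0.99 to 0.35).

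Over the 8 libraries the members did not vary as a block. Erbb3 and Fgfr4 had the highest correlation of the pairs of the 6 members other than Erbb2 (Pearson r = 0.91 on log2(FPKM + 1)). Egfr and Erbb3 had r = 0.0069, and Egfr and Met r = −0.63. These values describe libraries that share groups and depth. Among 8974 genes with a mean of at least 1 FPKM, those most like Egfr over the 8 libraries were Ormdl1 (r = 0.98), Cmah (r = 0.98) and Echdc1 (r = 0.97). Cmah, the gene of an enzyme of sialic acid synthesis, was at 20.6 to 22.2 FPKM in control males, 11.2 to 13.6 FPKM in knockout males, 13.7 to 17.8 FPKM in female controls and 10.5 to 12.6 FPKM in female knockouts. The genes most like Met were C4b (r = 0.99), Copz2 (r = 0.98) and Rpap3 (r = 0.98). C4b, the gene of complement component C4, was at 85.4 to 104 FPKM in control males, 133 to 158 FPKM in knockout males, 65.6 to 72.2 FPKM in female controls and 127 to 145 FPKM in female knockouts. For Fgfr4 the most like were Fam98c (r = 0.98), Herpud2 (r = 0.97) and Oaz1 (r = 0.97).

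Of the 27 listed feedback inhibitors and adaptors of receptor tyrosine kinases, 0 were called in either genotype comparison, 1 in each sex had an unadjusted p under 0.05, and limma voom called 0. Errfi1, whose product MIG6 binds and inhibits EGFR, was at 173 and 175 FPKM in control males, 107 and 169 FPKM in knockout males, 167 and 141 FPKM in female controls and 168 and 196 FPKM in female knockouts, and was chosen for its level after its values were seen. It was above Egfr in every library. Limma voom called 0 of the 15 ERK and growth response genes it tested in either genotype comparison. Of all 20 on the list, 1 was called higher in males by the authors' test, beside 2.18% of all listed genes called. In females 1 was called higher and 1 lower, beside 1.55%. The gene in males was Ccnd1, which encodes cyclin D1, at 3.66 and 3.32 FPKM in controls and 9.63 and 5.64 FPKM in knockouts, 2.20-fold higher in the authors' deposited table (adjusted p = 0.00808), while limma voom gave an adjusted p of 0.184. In females Ccnd1 was at 10 and 14.3 FPKM in controls and 10.6 and 9.11 FPKM in knockouts, which overlapped, with a ratio of 0.737 (adjusted p = 0.854) in the authors' deposited table. The male log2 change of Ccnd1 minus the female one was 1.17 by limma on log2(FPKM + 1), with a 95% interval of 0.29 to 2.05 (adjusted p = 0.843). Control males were lower than control females in Ccnd1, with a ratio of 0.264 in the authors' deposited table (adjusted p = 7.6e-11) and an adjusted p of 0.0382 by limma voom. In females Phlda1 was at 7.94 and 9.19 FPKM in controls and 5.07 and 6.41 FPKM in knockouts, lower by 1.64-fold (adjusted p = 0.0384) in the authors' deposited table, while limma voom gave an adjusted p of 0.57. The female call of Fos, an immediate early gene, rested on 1 library: it was at 0.276 and 0.254 FPKM in controls and at 0.597 and 5.46 FPKM in knockouts. Its ratio was 10.3 (adjusted p = 0.00149) in the authors' deposited table.

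Among the 52 other receptor tyrosine kinase genes, 48 had reads. In males 1 was called, which was Erbb4 and was lower, beside 2.18% of all listed genes called. In females 0 were called, beside 1.55%, while 3 had an unadjusted p under 0.05 and limma voom called 0 of the 30 it tested. Their median log2 ratio in the authors' deposited table was 0 in males and −0.15 in females. Beside these, the median of the 7 members was −0.17 in males and −0.051 in females.

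**Figure D4:**
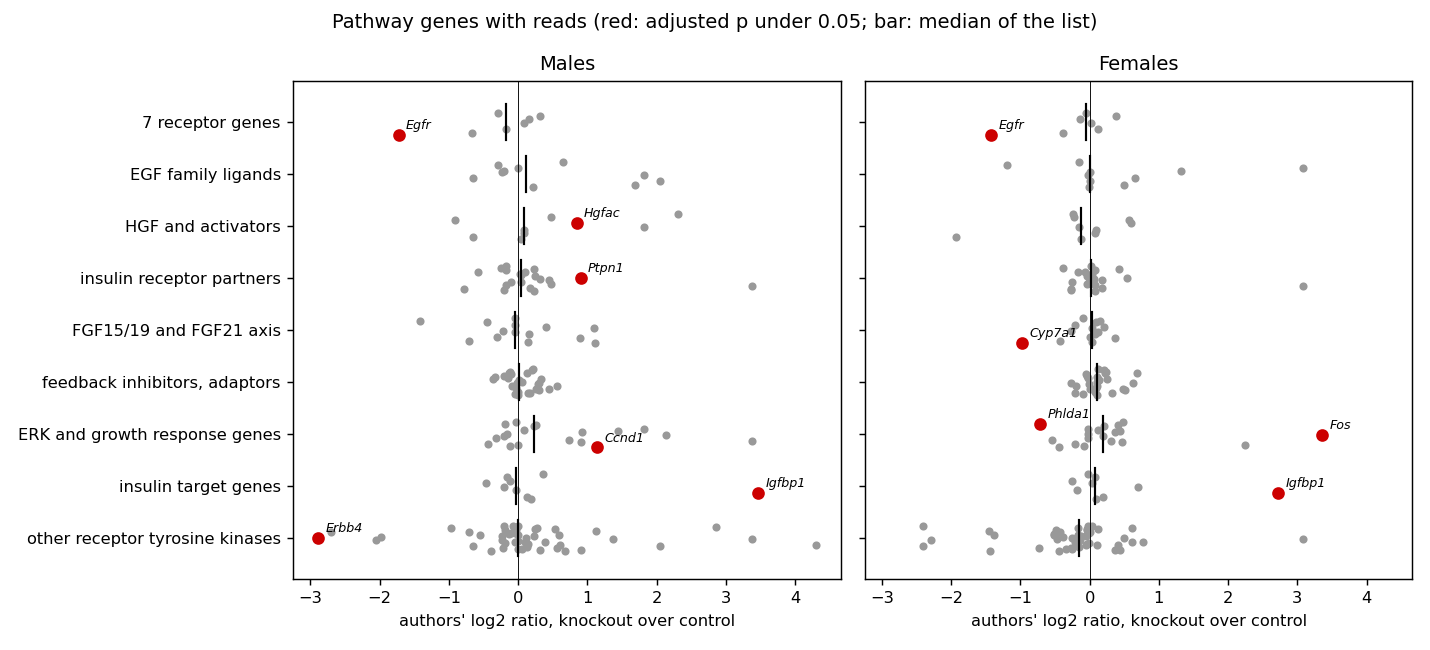
The authors' log2 ratio of knockout over control for the reported genes with reads in each pathway list, males left and females right, with called genes in red and a bar at the median of each list. Egfr is the called receptor in both panels. The far grey points include genes with few reads.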

How the data were processed

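Liver RNA of 8 libraries in 4 groups of 2 was measured by RNA-seq. Per the submitters' processing notes, TopHat2, featureCounts, edgeR and the mm9 build were used. Their versions were not given in the sources used here, nor were filters. The deposited table gives, per the file headers, each group's mean FPKM, a normalized ratio, and a p-value and adjusted p-value from the authors' edgeR test for 4 comparisons over 24197 genes. The adjusted values were checked to be Benjamini-Hochberg adjustments over all listed genes. No counts or single libraries are listed in the table.

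Reads of single libraries were recovered from the mean FPKM as the whole numbers that give the deposited value within a tolerance of 1e-08 reads. All 18004 genes above 0 were solved, 14409 of them with a gene length found by search rather than an annotated one. The largest difference from the deposited FPKM was 2.2e-11. Since solutions were accepted only where they gave the deposited value, this difference does not test how reads were split between the libraries of a group. The recovery cannot tie a library to a pool number or to the code in its title. Control males, control females and knockout females each have a code of their own group in the titles, while 1 knockout male library has that of control males and the other that of control females. In the female genotype comparison, code and genotype therefore cannot be told apart. The groups of each sex comparison also share no code, so code and sex cannot be told apart there.

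Calls were the authors' adjusted p under 0.05. Refits used limma 3.58.1 in R 4.3.3 on all 8 libraries with 4 residual degrees of freedom, on log2(FPKM + 1) with a mean-variance trend over 18004 genes, and as voom on recovered reads over 12980 genes with at least 10 reads in at least 2 libraries, scaled by the median of ratios. Adjusted p-values of refits are over all genes tested. The fits were tested on simulated data. Depth ran from 2288033 to 11361272 reads in genes per library, so that intervals are widest for genes of few reads.

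The members, gene lists and tests were chosen with earlier results of these data known. Named were all members, the called genes of each list (at most 6, with 1 gene not reported here), Egf, Tgfa, Hgf and Fgf21, and the 3 genes most like Egfr, Met and Fgfr4. Markers of lymphocytes, neutrophils, pancreas and red blood cells were also summed.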

Additional observations from a re-analysis of the deposited data

How the results depend on the processing

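In males, the authors' test called 1 of the 7 members, and limma voom also called 1, as it did with library totals as scaling, without a filter on low counts (added after seeing the data) or on the libraries of the comparison alone. The count was 0 by limma on log2(FPKM + 1), on log2(FPKM + 0.1) and with a minimum mean of 0.5 FPKM, and 0 to 1 when leaving out each library in turn. In females, the authors' test called 1 member, and the count was 0 by each of these fits and when leaving out each library in turn. The cause of these differences was not tested. At the authors' adjusted p under 0.01, Egfr stayed called in both sexes. The log2 ratio of Egfr ranged from −2.08 to −1.47 in males and from −1.89 to −0.75 in females over the 16 alternatives of each sex. No member was called in another comparison under any of the alternatives run. Over all genes the male genotype comparison had 528 calls by the authors' test, 197 by limma voom and 55 by limma on log2(FPKM + 1), and the female one 374, 46 and 6. The sex comparisons had 356, 99 and 64 calls in controls and 245, 50 and 16 calls in knockouts. The interaction had 2 calls by limma on log2(FPKM + 1), 9 on log2(FPKM + 0.1) and 0 by limma voom, and leaving out each library in turn gave 4 to 42 on log2(FPKM + 1) and 0 to 6 by limma voom. Voom counts with each library left out ran from 53 to 285 for the male and from 8 to 65 for the female genotype comparison. No paired analysis was possible because the recovered libraries carry no pool number. A lone library left in a group was assumed to vary like those of the other groups. Erbb2, at 6 to 28 reads a library, changed sign in 4 alternatives in each sex, Fgfr4 in 5 in females, and Erbb3 in females and Insr in males in 1 each, none of them called.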

Other observations

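The remaining marker lists were at low or variable levels. The 8 lymphocyte markers summed to 0.796 to 1.32 FPKM in control males and 1.78 to 2 FPKM in knockout males, and to 1.93 to 2.34 FPKM and 1.84 to 1.96 FPKM in control and knockout females. The 5 listed neutrophil markers summed to at most 2.60 FPKM in any library. The 11 pancreas markers summed to 9.38 to 11.2 FPKM in control males, where 9 of them were at 0, and to 3.23 to 7.38 FPKM in knockout males, where 1 was at 0. Most of these sums was Cela1, at 9.15 and 11.2 FPKM in control males and 2.45 and 4.87 FPKM in knockout males, with a ratio of 0.363 (adjusted p = 8.55e-05) in the authors' deposited table. The other 10 had at most 6 reads in a control male library and at most 18 reads in a knockout male library. The 6 red blood cell genes summed to 98.3 to 268 FPKM in control males, 111 to 132 FPKM in knockout males, 74.5 to 89.2 FPKM in control females and 60.4 to 68.8 FPKM in knockout females. The authors' test called 5 of the 6 higher in knockout males than in knockout females. In controls it called 1, Alas2, higher in males, with a ratio of 3.10. Limma voom called 0 of the 5 it tested in knockouts and 1 in controls. The part of these levels in the receptor values was not tested.

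Other genes of the receptor lists differed between the sexes. Dusp1, which encodes a phosphatase of MAP kinases, was lower in males than in females in the authors' deposited table, with ratios of 0.316 in controls (adjusted p = 1.98e-08 by edgeR) and 0.31 in knockouts (adjusted p = 0.000207). It was at 4.06 and 2.91 FPKM in control males and 9.76 and 11.5 FPKM in control females. Knockout males had 4.94 and 4.99 FPKM and knockout females 9.29 and 23.5 FPKM, so the size of the knockout ratio leans on 1 library. Nrg1, a ligand of ERBB3, had 19 and 16 reads in knockout males and 0 and 5 reads in knockout females, and the authors' deposited table called it higher in males (ratio 5.96, adjusted p = 0.0322). Cyp8b1, an enzyme of bile acid synthesis, was 1.98-fold higher in knockout males than in knockout females in the authors' deposited table (adjusted p = 0.00534). Egr1, an immediate early gene, was lower in control males than in control females in the authors' deposited table, with a ratio of 0.2 (adjusted p = 6.64e-13). None of these calls was made by limma voom, whose adjusted p was 0.214 and 0.193 for Dusp1, 0.251 for Nrg1, 0.346 for Cyp8b1 and 0.184 for Egr1.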
